A study of Mus musculus with 12 samples.

Results

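MIN6 cells that had their amino acids returned for 3 h together with Rap were compared, gene by gene, with MIN6 cells left without amino acids for 16 h. The comparison rests on 6 of the 12 RNA-seq libraries of the series, 3 Rap libraries and 3 starved libraries, chosen by their labels alone. MIN6 is a mouse insulinoma line that produces insulin and stands in for β-cells of the pancreas in culture. All 12 libraries come from wild-type MIN6 cells grown in DMEM with 15% FBS and 2 mM glutamine. The other 6 libraries are 3 never-starved controls and 3 of cells given amino acids back for 3 h without Rap. The latter are called refed cells in the text and re-added in the plots. These 6 libraries give side levels and also enter the fit that estimates the spread. The refed libraries are tested against the Rap and the starved libraries as well. The labels write the agent as Rap and give no dose, no make-up of the medium without amino acids, and no length of starvation for the 2 groups that were refed. Whether replicates are separate cultures is not stated either, so each p-value rests on a spread among libraries that may be only technical. The series title places the work on PDX1, a β-cell transcription factor, and on amino acid signalling through mTORC1. The question here is which part of the gene response to amino acids appears when Rap is present.

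Cells read amino acid supply through 2 main routes. Uncharged tRNA activates the kinase GCN2, which phosphorylates eIF2 and favours translation of the transcription factor ATF4. ATF4 then raises genes for amino acid transport, amino acid synthesis and tRNA charging. Amino acids also act through the Rag GTPases, which bring the kinase complex mTORC1 to the lysosome, where it promotes ribosome production, translation, and lipid and nucleotide synthesis and restrains autophagy. One branch of that route, through folliculin and RagC or RagD, keeps the transcription factors TFEB and TFE3 out of the nucleus. In β-cells both routes meet a heavy load of proinsulin synthesis, which depends on chaperones of the endoplasmic reticulum.

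Library totals ran from 18555958 to 25631056 counts over the 12 libraries, so 5 CPM (counts per 1000000 of a library's total) stood for 92.8 to 128 reads. All CPM values below are scaled by edgeR's TMM factors, except the marker sums of other cells, which are plain CPM. The gene test was edgeR's quasi-likelihood test on 16844 genes over all 12 libraries, and a gene is called when its Benjamini-Hochberg adjusted p is under 0.05. The MIN6 identity showed in each library: Ins2, an insulin gene, held 18000 to 22154 CPM in the starved and Rap libraries.

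Starved replicates 1 and 3 stood apart from the rest of this comparison. Leukocyte markers added up to 1720, 97.5 and 851 CPM for starved replicates 1, 2 and 3, but to 85.4, 80.7 and 80.2 CPM for Rap replicates 1, 2 and 3. Lung epithelium markers, such as the surfactant genes, reached 1603, 105 and 730 CPM when starved against 81.3, 78.5 and 74.3 CPM with Rap. The same order held for fibroblast markers (301, 19.7 and 131 CPM starved), endothelium markers (322, 67.3 and 163 CPM) and globin and haem genes of red cells (172, 10.1 and 67.9 CPM). The Rap libraries held 15.3 to 19.3, 64.1 to 65.6 and 4.98 to 6.60 CPM of these 3 lists. None of the markers of these 5 lists was at 0 in a whole group. Of their 54 tested members, 47 were called lower in Rap cells than in starved cells. Control libraries carried marker sums as high as starved replicate 1, and re-added replicate 1 carried them too. Pancreatic exocrine and duct markers summed to 434 to 453 CPM starved and 521 to 541 CPM with Rap, with Prss1, Prss2 and Amy2a2 at 0 in both groups. Marker sums of the other islet hormones were 2309 to 2362 CPM starved and 2262 to 2668 CPM with Rap. Bulk counts do not show whether these transcripts came from cells in the cultures or from RNA of another source. Fewer cells of a type and less RNA per cell cannot be told apart either. The part of other cells in the results was not tested. Counts or medians of each group of genes below are therefore given again with starved replicate 2 as the only starved library. That fit takes this library to vary like the other groups. A call lost in it does not by itself mean a smaller difference.

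**Figure D1:**
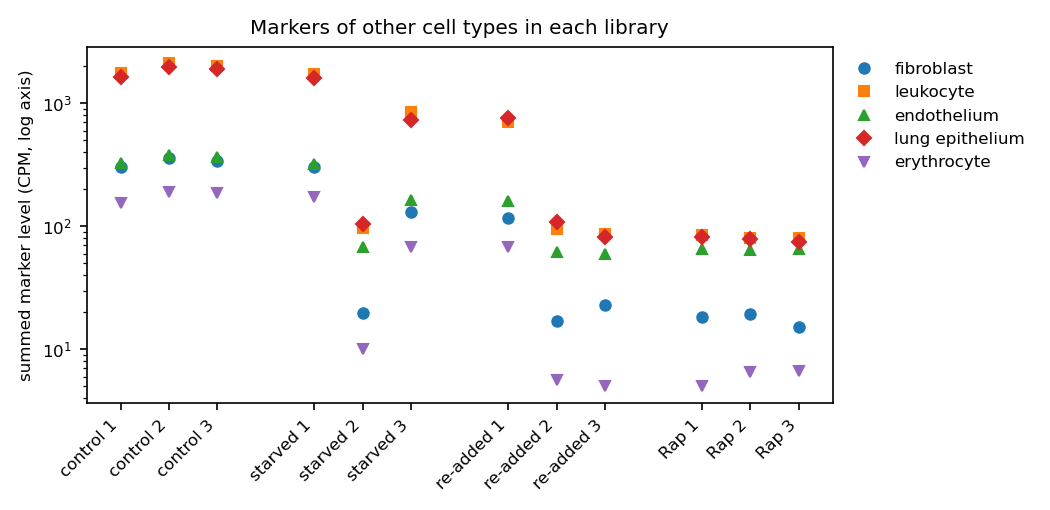
Summed CPM of marker genes of 5 other cell types (1 colour and symbol per list, log axis) in each of the 12 libraries, 1 point per library. The Rap libraries and starved replicate 2 lie at the low level, starved replicate 1 lies near the controls (leukocyte markers 1720 CPM against 1766 to 2117 CPM), and starved replicate 3 lies between.

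Of the 16844 genes tested, 7424 were called between Rap and starved cells (44.1%). Higher calls numbered 3399 (20.2%) and lower calls 4025 (23.9%), and the median log2 difference over all genes was -0.03. Changes of at least 2-fold were called for 758 genes higher in Rap cells (4.5%) and for 1595 genes lower (9.47%). The second number varied with the method and with the libraries kept. It was 617 with limma voom on all libraries, and 818, 820 and 739 without Rap replicate 1, 2 or 3. The cause was not tested. With starved replicate 2 alone, 17738 genes were tested and 1554 were called higher (8.76%) and 1784 lower (10.1%). At least 2-fold changes were then 571 higher (3.22%) and 350 lower (1.97%). With only the libraries low in these markers (starved replicate 2, refed replicates 2 and 3 and all Rap replicates) 3370 genes were called higher (20.8%) and 3652 lower (22.5%), and 823 (5.08%) and 501 (3.09%) by at least 2-fold. Of the 1595 genes that were at least 2-fold lower, 291 were called lower with starved replicate 2 alone and 1304 were not. Of the 758 that were at least 2-fold higher, 455 were called higher with starved replicate 2 alone. The genes described below were taken mainly from those called in the same direction with all libraries and with starved replicate 2 alone. Exceptions are stated. List counts below stand beside 20.2% of all genes called higher and 23.9% called lower with all libraries.

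Rap cells were also compared directly with the cells refed without Rap, because both differ from the same starved libraries and 2 comparisons that share libraries cannot be set against each other. That direct test called 766 genes higher with Rap (4.55%) and 578 lower (3.43%), a total of 7.98%. At least 2-fold differences numbered 100 higher (0.594%) and 7 lower (0.0416%). The counts depend on the libraries used: with only the 6 libraries low in other-cell markers the calls were 1922 higher and 2013 lower. Leaving out any 1 Rap library, or refed replicate 2 or 3, gave 390 to 425 higher and 245 to 268 lower. Without refed replicate 1, 509 were higher, and without control replicate 2, 1168 were higher and 890 lower. DESeq2 called 1162 lower, and the 5 CPM filter gave 976 lower. In the comparison of refed cells without Rap against starved cells, 3100 genes were called higher (18.4%) and 3175 lower (18.8%), with 635 (3.77%) and 682 (4.05%) by at least 2-fold. The 682 became 1760 without refed replicate 1 and 1618 without starved replicate 2, and the 3100 became 1699 with starved replicate 2 alone. With the 5 CPM filter, which tests fewer genes, the at least 2-fold counts were 298 higher and 370 lower.

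**Figure D2:**
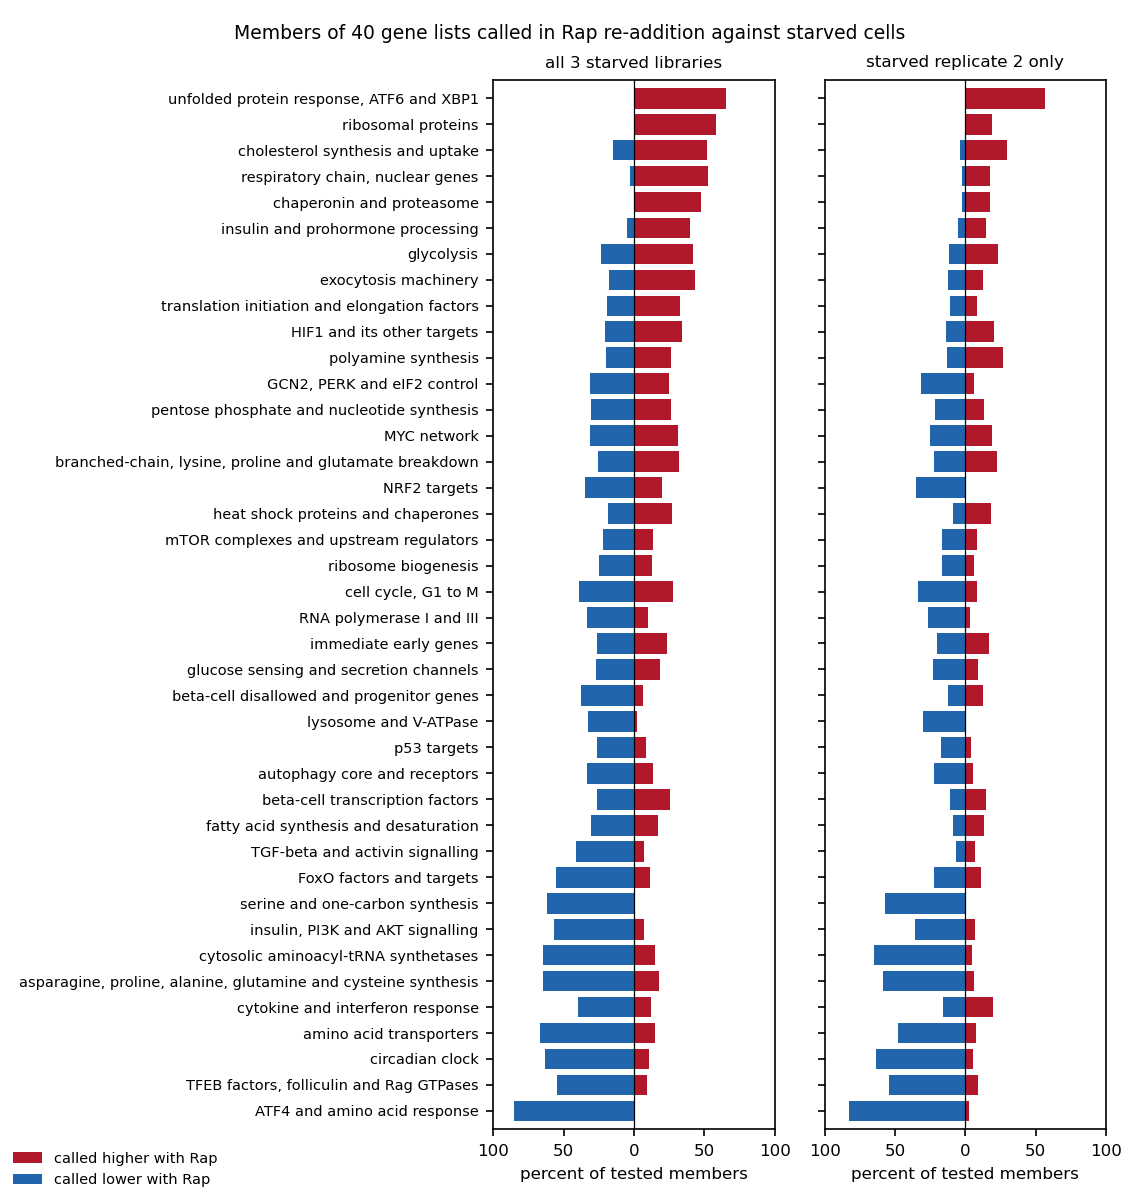
Percent of the tested genes of 40 lists called higher or lower in Rap cells than in starved cells, with all 3 starved libraries on the left and with starved replicate 2 as the only starved library on the right. ATF4 genes (29 of 34 lower) and genes of the unfolded protein response (15 of 23 higher) keep their side in both panels. Fewer ribosomal proteins are called on the right than the 46 of 79 on the left. Their median log2 difference is not smaller there, at 0.42 on the right and 0.31 on the left.

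Genes of the ATF4 response were lower in Rap cells than in starved cells. Of 34 listed genes, all tested, 29 fell and 0 rose, with a median log2 difference of -0.92 against -0.03 over all genes. With starved replicate 2 alone, 28 fell and 1 rose, with a median of -0.96, and 10.1% of all genes fell in that fit. No member rose at an unadjusted p under 0.05 in edgeR either, nor by DESeq2 or limma voom with all libraries. The riser was Gdf15, a secreted stress factor, at 1.63, 0.588 and 1.54 CPM in starved cells and 1.63, 1.32 and 2.02 CPM in Rap cells, where the fit with all libraries made no call (edgeR adjusted p = 0.393).

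The shared DNA motif of this response, the composite element read by ATF4 with a C/EBP partner, is shown for 4 of the genes that fell and for 1 that was not called. In each stretch the capitals mark TGATGNAA or its reverse complement, searched on both strands in the 250 bases before the start site. All are written 5′ to 3′ on the gene's own strand, from RefSeq promoters on GRCm38.p6. Chac1 lies at chr2:119351015-119351090 on the plus strand with the motif starting at -193. Slc7a11 lies at chr3:50443619-50443694 on the minus strand, motif at -47, and a second match stands in the same stretch in lower case, at -66. Nupr1 lies at chr7:126625539-126625614 on the minus strand, motif at -110, Asns at chr6:7693210-7693266 on the minus strand, motif at -23, and Atf3 at chr1:191183402-191183477 on the minus strand, motif at -110.
Chac1: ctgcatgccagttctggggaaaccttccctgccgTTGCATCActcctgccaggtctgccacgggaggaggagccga
Slc7a11: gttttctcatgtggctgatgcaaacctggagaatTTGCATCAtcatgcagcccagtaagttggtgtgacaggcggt
Nupr1: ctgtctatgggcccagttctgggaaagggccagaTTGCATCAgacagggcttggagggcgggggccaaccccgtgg
Asns: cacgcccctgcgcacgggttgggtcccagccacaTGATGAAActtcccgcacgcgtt
Atf3: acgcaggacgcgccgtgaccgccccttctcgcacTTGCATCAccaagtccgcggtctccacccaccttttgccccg

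The motif was present in 10 of the 32 listed genes with a promoter in the table (31.25%). It was present in 2.45% of the promoters of all 12089 tested genes with an entry and in 3.91% of all 27025 genes of the table. The 10 genes were Asns, Atf3, Chac1, Fgf21, Herpud1, Jdp2, Nupr1, Pycr1, Slc7a11 and Vldlr, and 8 of them fell. Atf3 and Fgf21 were not called. A match describes the letters in this window and nothing more.

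Chac1 (chromosome 2, 119351229 to 119354381, plus strand) encodes an enzyme that breaks down glutathione and is a sensitive ATF4 target. Its level was 120, 144 and 146 CPM starved and 20.4, 25.4 and 23.6 CPM with Rap. The groups were far apart, and the difference was -2.56 ± 0.1 on the log2 scale (SE, 3 libraries a group, edgeR adjusted p = 6.1e-08), 5.91-fold lower. Cells refed without Rap held 35.2 to 37.5 CPM, above all Rap libraries, and the direct comparison gave -0.65 (edgeR adjusted p = 0.00202). Never-starved cells held 31.2 to 35.0 CPM.

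Atf5 (chromosome 7, 44812256 to 44816658, minus strand) encodes a transcription factor of the same branch. It stood at 839, 980 and 827 CPM starved and at 192, 191 and 188 CPM with Rap. The Rap libraries lay within a few CPM of each other and far below every starved library, with a difference of -2.21 ± 0.1 (edgeR adjusted p = 9.7e-08). Trib3, a pseudokinase that damps ATF4, stood at 48.9, 66.5 and 54.7 CPM starved and at 9.16, 8.77 and 10.4 CPM with Rap, a fall of 5.98-fold. Nupr1, a stress-induced chromatin protein, fell by 2.17 on the log2 scale, from 35.9, 29.4 and 35.8 CPM to 8.62, 6.79 and 7.05 CPM. Both groups of each gene were separate.

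Atf4 itself was at 385, 472 and 427 CPM in starved cells and at 199, 178 and 199 CPM in Rap cells. No Rap library reached a starved one, and the difference was -1.16 ± 0.1 (edgeR adjusted p = 5.7e-06). Rap cells were also below cells refed without Rap, which held 293 to 311 CPM (-0.66, edgeR adjusted p = 0.0013), and below the controls at 225 to 276 CPM. Asns, asparagine synthetase, followed at 302, 377 and 336 CPM starved against 194, 201 and 191 CPM with Rap, -0.79 ± 0.09 (edgeR adjusted p = 4e-05). Ddit3, which encodes CHOP, was 56.7, 62.9 and 60.0 CPM starved and 34.2, 37.2 and 38.0 CPM with Rap, a fall of 1.64-fold.

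Over the list, 15 of the 34 genes were lower with Rap than in cells refed without it, against 3.43% of all genes. The median of that direct comparison was -0.29. The 5 genes without a call against starved cells were Cebpb, Fgf21, Atf3, Ddit4 and Gdf15. Ddit4 (REDD1), an mTORC1 inhibitor, held 93.4, 94.5 and 98.0 CPM starved and 92.3, 89.9 and 105 CPM with Rap, and the groups overlapped. The controls were at 207 to 223 CPM, so Ddit4 stayed under the control level in both groups. Cebpb varied within starved cells, at 21.2, 17.5 and 93.6 CPM.

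**Figure D3:**
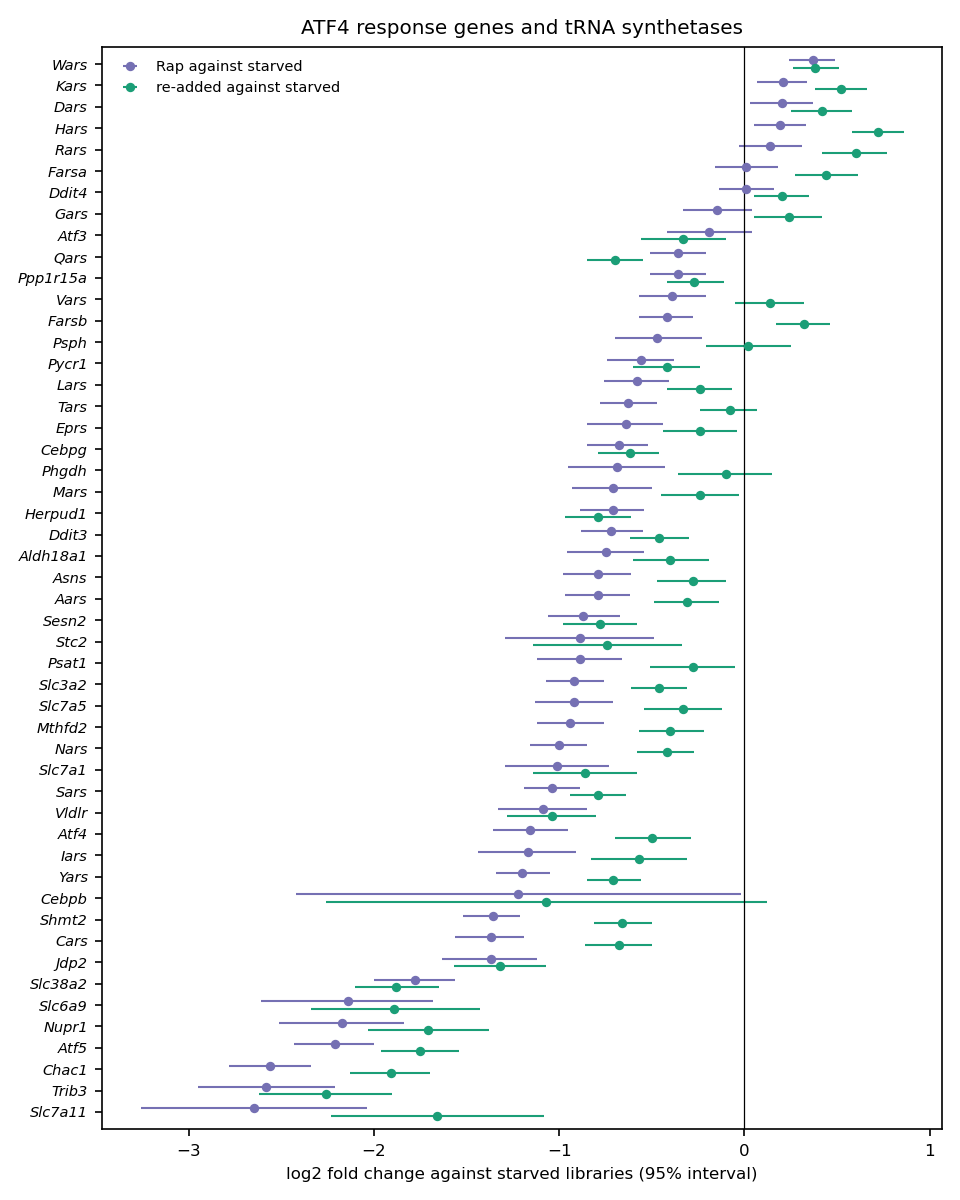
Log2 difference from starved cells with its 95% interval for ATF4 genes and cytosolic tRNA synthetases with at least 5 CPM in a group mean, for Rap cells and for cells refed without Rap. Both sets of differences use the same starved libraries. Chac1 and Trib3 lie near -2.6 with Rap, while Wars, Kars and Hars lie above 0.

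Cytosolic aminoacyl-tRNA synthetases, which load amino acids onto tRNA, mostly fell. Of 20 tested, 13 were lower and 3 were higher in Rap cells, with a median of -0.50, and with starved replicate 2 alone 13 were lower and 1 was higher. Cars, for cysteine, stood at 108, 138 and 116 CPM starved and 47.6, 46.1 and 45.9 CPM with Rap. Its Rap libraries lay below every starved and every control library (65.3 to 68.8 CPM), with a difference of -1.37 ± 0.09 (edgeR adjusted p = 7.9e-07). Yars, for tyrosine, fell by 1.2 on the log2 scale (edgeR adjusted p = 3.2e-07), Iars by 1.17, Sars by 1.04 and Nars by 1.0. Wars, for tryptophan, went the other way, from 229, 232 and 233 CPM to 300, 299 and 295 CPM, 0.37 ± 0.06 (edgeR adjusted p = 0.00055). Kars rose by 0.21 and Hars by 0.19, and neither kept its call with starved replicate 2 alone.

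The direct comparison set Rap cells below refed cells for 17 of the 20 synthetases, with a median of -0.46, and above them for 1. In cells refed without Rap, 8 synthetases were called higher than in starved cells and 8 lower. Farsb, a subunit of the phenylalanine enzyme, shows the gap: it held 61.4, 68.6 and 62.7 CPM starved, 78.0, 83.6 and 78.6 CPM refed, and 49.3, 45.5 and 48.9 CPM with Rap. The Rap libraries were the lowest of all 12, and the direct difference was -0.74 ± 0.07 (edgeR adjusted p = 6e-05). The exception was Qars, for glutamine, which was higher with Rap than in refed cells (0.34, edgeR adjusted p = 0.00986) and lower than in starved cells (-0.36, edgeR adjusted p = 0.00151).

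Amino acid transporters were split, with 18 of 27 tested members lower in Rap cells and 4 higher, and a median of -0.66. With starved replicate 2 alone 13 fell and 2 rose. Slc38a2 (chromosome 15, 96687394 to 96699698, minus strand) encodes SNAT2, the system A transporter induced by amino acid lack. It stood at 373, 443 and 388 CPM starved and 119, 119 and 113 CPM with Rap. The Rap libraries lay at the level of cells refed without Rap (105, 110 and 113 CPM) and below the controls (145 to 186 CPM). The difference from starved cells was -1.78 ± 0.1 (edgeR adjusted p = 3.6e-07) and the difference from refed cells 0.10 (edgeR adjusted p = 0.6). Slc7a11, the cystine carrier xCT, fell from 11.8, 11.7 and 10.6 CPM to 1.14, 2.65 and 1.64 CPM, 6.27-fold (edgeR adjusted p = 3.3e-05). Slc7a5, the large neutral carrier LAT1, stood at 360, 448 and 439 CPM starved and 223, 227 and 209 CPM with Rap, a difference of -0.92. Its refed level was 314 to 345 CPM, above the Rap libraries (-0.59, edgeR adjusted p = 0.00325).

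The largest rise among carriers was that of Slc43a2, LAT4, which lets large neutral amino acids move by facilitated diffusion. It went from 59.8, 62.9 and 65.5 CPM to 171, 177 and 158 CPM, with refed cells at 163, 171 and 186 CPM and controls at 95.5 to 123 CPM. Rap and refed libraries interleaved, and every one of them lay above every starved library. The difference from starved cells was 1.43 ± 0.1 (edgeR adjusted p = 1.5e-06). Slc38a10 rose by 0.71. Slc38a6 rose by 0.58 and Slc7a8 (LAT2) by 0.41. Both calls were lost with starved replicate 2 alone, where the differences were 0.54 and 0.36.

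Serine and one-carbon synthesis supplies glycine, methyl groups and purine carbons. Of 21 tested genes 13 fell and 0 rose, median -0.43, and with starved replicate 2 alone 12 fell and 0 rose, median -0.52. At an unadjusted p under 0.05 and by limma voom 0 rose too, and DESeq2 called 1 higher. Shmt2, the mitochondrial serine hydroxymethyltransferase, stood at 207, 237 and 230 CPM starved and 88.2, 84.3 and 89.0 CPM with Rap. Refed cells were between, at 139, 147 and 141 CPM, with no overlap among the 3 groups. The difference was -1.36 ± 0.07 from starved cells (edgeR adjusted p = 3e-07) and -0.71 ± 0.07 from refed cells (edgeR adjusted p = 0.00015). Aldh1l2 fell by 1.38 on the log2 scale and Shmt1 by 1.27. Psat1, of serine synthesis, stood at 317, 381 and 338 CPM starved and 175, 193 and 190 CPM with Rap. In the direct comparison 11 of the 21 genes were lower with Rap than without it, median -0.31.

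Enzymes that make asparagine, proline, alanine, glutamine and glutathione precursors were lower for 11 of 17 genes and higher for 3, median -0.54. With starved replicate 2 alone 10 fell and 1 rose, median -0.59. Gpt2, mitochondrial alanine aminotransferase, stood at 97.8, 121 and 110 CPM starved and 30.0, 33.3 and 31.2 CPM with Rap. The Rap libraries had reached the control range of 26.7 to 33.0 CPM, and the difference from starved cells was -1.80 ± 0.1 (edgeR adjusted p = 3e-07). Gclc, the rate-limiting enzyme of glutathione synthesis, stood at 85.4, 84.4 and 88.4 CPM starved and 43.7, 37.4 and 39.0 CPM with Rap. Refed cells overlapped with Rap cells for Gclc at 37.1 to 43.7 CPM. Among the risers on this list were Gss (0.52) and Chac2 (0.61), which like Chac1 breaks down glutathione and does not make it. Gss kept its call with starved replicate 2 alone.

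Amino acid breakdown did not move as a group: of 31 genes for branched-chain, lysine, proline and glutamate breakdown 10 rose and 8 fell, median 0.03, and 7 and 7 did with starved replicate 2 alone. Aass, which starts lysine breakdown (chromosome 6, 23072173 to 23132986, minus strand), stood at 3.88, 4.17 and 3.5 CPM starved and 22.0, 18.9 and 19 CPM with Rap. Refed cells were at 16.9, 17.3 and 17.7 CPM and controls at 7.25 to 9.44 CPM, so both refed groups lay above control. The rise was 5.19-fold (2.37 ± 0.13 in log2, edgeR adjusted p = 3.1e-07). Bcat2, the mitochondrial branched-chain aminotransferase, rose by 0.68. Bckdha, a subunit of the next enzyme of that path, held 43.3, 56.0 and 52.1 CPM starved and 50.4, 49.2 and 50.3 CPM with Rap, overlapping, while refed cells without Rap held 17.9 to 18.5 CPM (Rap against refed 1.45, edgeR adjusted p = 3.9e-06).

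Control of eIF2 itself was mixed. Of 16 genes around GCN2, PERK and eIF2, 4 rose and 5 fell, beside 20.2% and 23.9% of all genes. Their median was 0.07, and 0.03 with starved replicate 2 alone. Eif2ak4, which encodes GCN2, stood at 27.0, 33.7 and 29.0 CPM starved and 24.7, 18.7 and 19 CPM with Rap (-0.52, edgeR adjusted p = 0.00769). Ppp1r15b, the constitutive eIF2 phosphatase subunit, fell by 0.66, and Eif2b3, a subunit of the exchange factor eIF2B, rose by 0.66.

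Chaperones and other genes of the unfolded protein response were higher in Rap cells. Of 23 genes of the ATF6 and XBP1 branches, 15 rose and 0 fell, median 0.55, and with starved replicate 2 alone 13 rose and 0 fell, median 0.51, against 8.76% of all genes rising. With all libraries no member fell at an unadjusted p under 0.05 in edgeR, by DESeq2 or by limma voom. Pdia4, a disulfide isomerase of the endoplasmic reticulum (chromosome 6, 47796141 to 47813430, minus strand), stood at 214, 248 and 239 CPM starved and 579, 595 and 573 CPM with Rap. Refed cells held 576, 599 and 582 CPM, the same range as Rap cells, and controls 327 to 347 CPM. The rise was 2.49-fold (1.31 ± 0.07 in log2, edgeR adjusted p = 2.3e-07), and the direct difference from refed cells was -0.01 (edgeR adjusted p = 0.954). Hspa5, which encodes BiP, the main chaperone of this compartment, stood at 1663, 2017 and 1818 CPM starved and 3085, 3113 and 3160 CPM with Rap. It rose by 0.77 ± 0.08, and refed cells were at 3149 to 3208 CPM. Creld2 rose by 1.01 and Sdf2l1 by 0.90.

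In this list 2 of 23 genes were higher with Rap than in refed cells. One was Derl3, a membrane protein of the degradation channel, at 17.7, 21.4 and 18.5 CPM starved, 14.8, 12.3 and 13.0 CPM refed and 35.4, 38.0 and 42.6 CPM with Rap. Rap libraries were the highest of all 12, controls being at 5.10 to 7.62 CPM. The difference was 1.01 ± 0.14 from starved cells (edgeR adjusted p = 0.00018) and 1.53 ± 0.14 from refed cells (edgeR adjusted p = 6e-05). The other was Dnajb9 (ERdj4), at 227, 290 and 242 CPM starved, 246 to 270 CPM refed and 395, 409 and 411 CPM with Rap. Its difference was 0.68 from starved and 0.65 from refed cells. Xbp1 and Atf6 were not called: Xbp1 held 347, 428 and 395 CPM starved and 411, 413 and 426 CPM with Rap.

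The folliculin and Rag branch fell. Of 11 genes, which include TFEB, its relatives, folliculin, its partners and the Rag GTPases, 6 fell and 1 rose, median -0.82, with the same 6 to 1 count and a median of -0.81 with starved replicate 2 alone. Flcn, folliculin, activates RagC and RagD and is itself a TFEB target (chromosome 11, 59791408 to 59810016, minus strand). It stood at 107, 127 and 103 CPM starved, 27.5, 26.1 and 27.9 CPM with Rap, and 20.5, 18.8 and 20.4 CPM refed. Controls were higher than both refed groups, at 35.9 to 40.3 CPM. The fall was 4.13-fold (-2.05 ± 0.09 in log2, edgeR adjusted p = 9.4e-08), and Rap cells lay above refed cells by 0.45 (edgeR adjusted p = 0.00927). Rragd, RagD, also a TFEB target, stood at 87.8, 111 and 98.6 CPM starved and 30.1, 31.5 and 28.3 CPM with Rap, a fall of 3.31-fold. Its refed level of 25.7 to 27.4 CPM and control level of 27.9 to 36.8 CPM were close to the Rap level. Fnip1, a folliculin partner, fell by 1.03 and Rragc by 0.87. Rraga rose, from 112, 136 and 123 CPM to 174, 178 and 187 CPM (0.54, edgeR adjusted p = 0.0003). Tfeb at 17.0 to 22.8 CPM and Tfe3 at 45.5 to 56.2 CPM over these 6 libraries were not called.

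Lysosomal enzymes, membrane proteins and V-ATPase subunits moved less. Of 40 tested, 13 fell and 1 rose, median -0.09, and 12 fell and 0 rose with starved replicate 2 alone, although without any one of the Rap libraries 8 fell. Neu1, a sialidase, stood at 107, 130 and 118 CPM starved and 68.5, 72.5 and 79.2 CPM with Rap (-0.69, edgeR adjusted p = 0.00015). Cln3, a lysosomal membrane protein, fell by 0.55 from 33.8, 38.8 and 39.9 CPM to 24.3, 26.8 and 25.7 CPM, with refed cells at 24.9 to 26.1 CPM. Atp6v1b2, a V-ATPase subunit, fell by 0.56. The riser Naglu (0.26) lost its call with starved replicate 2 alone and without Rap replicate 2 or 3. In the direct comparison edgeR called 0 of the 40 genes. At an unadjusted p under 0.05 it put 9 higher with Rap than without it, DESeq2 called 7 higher, and limma voom 0.

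The CLEAR box, TCACGTGA, is the element TFEB and TFE3 read, and it contains the general E-box CACGTG. Searched on both strands of the same 250 bases, it was present in 6 of 29 lysosomal promoters (20.69%), namely Atp6v1a, Cln3, Ctsa, Ctsd, Gla and Mcoln1, against 1.59% of tested genes and 0.91% of all genes. Of these 6, Cln3, Gla and Mcoln1 fell. Cln3, a gene that fell, and Ctsd, one that was not called, show it here in capitals, RefSeq on GRCm38.p6, 5′ to 3′ on the gene's strand. Cln3 lies at chr7:126583317-126583392 on the minus strand, motif at -122, and Ctsd at chr7:142387885-142387960 on the minus strand, motif at -99.
Cln3: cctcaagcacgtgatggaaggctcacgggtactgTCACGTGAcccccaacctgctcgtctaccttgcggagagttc
Ctsd: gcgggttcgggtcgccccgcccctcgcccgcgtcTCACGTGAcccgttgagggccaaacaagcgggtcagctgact

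Many autophagy genes were higher with Rap than without it. Against starved cells 12 of 36 fell and 5 rose, median -0.16, and with starved replicate 2 alone 8 fell and 2 rose. Against refed cells 12 of 36 were higher with Rap and 1 was lower, median 0.28, where 4.55% of all genes were higher. Gabarapl1 encodes a protein that coats autophagosomes (chromosome 6, 129533160 to 129542346, plus strand). It stood at 302, 341 and 319 CPM starved, 66.2, 66.0 and 61.9 CPM refed and 142, 135 and 146 CPM with Rap. The Rap libraries lay between the other groups and a little above the controls (112 to 132 CPM). The differences were -1.18 ± 0.08 from starved cells (edgeR adjusted p = 1.4e-06) and 1.13 ± 0.08 from refed cells (edgeR adjusted p = 1.1e-05).

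Map1lc3b (LC3B) followed at 223, 270 and 240 CPM starved, 73.8 to 78.9 CPM refed and 152, 158 and 168 CPM with Rap. Ulk1, the kinase that starts autophagy, stood at 58.3, 66.1 and 63.4 CPM starved, 17.1 to 22.4 CPM refed and 44.2, 42.9 and 41.4 CPM with Rap. Both fell against starved cells (by 0.62 and 0.55) and were higher than in refed cells (1.05 and 1.12). Atg13, a partner of Ulk1, was highest with Rap, at 163, 164 and 163 CPM against 113, 131 and 125 CPM starved and 73.6 to 76.2 CPM refed. It rose by 0.41 ± 0.08 (edgeR adjusted p = 0.00164) against starved cells and by 1.13 against refed cells (edgeR adjusted p = 8.2e-06). Sqstm1, the cargo receptor p62, fell by 0.61 to 587 to 594 CPM, close to the control range of 518 to 585 CPM. Calcoco1, a receptor for the endoplasmic reticulum, fell by 0.34, a call lost with starved replicate 2 alone (edgeR adjusted p = 0.0534), and was 1.16 higher than in refed cells.

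FoxO factors drive their target genes when insulin and AKT signalling is low. Of 27 FoxO factors and targets tested, 15 fell and 3 rose against starved cells, median -0.33, and with starved replicate 2 alone 6 fell and 3 rose. Against refed cells 10 were higher with Rap and 1 was lower, and only Klhl24, Fbxo32 and Ccng2 differed by more than 2-fold among those called. Klhl24, a ubiquitin ligase adaptor, stood at 107, 130 and 110 CPM starved, 10.1, 6.05 and 7.16 CPM refed and 47.5, 52.0 and 45.6 CPM with Rap. All 3 groups were separate, and controls lay at 20.4 to 34 CPM. The differences were -1.26 ± 0.18 from starved cells (edgeR adjusted p = 0.00032) and 2.64 ± 0.21, or 6.24-fold, from refed cells (edgeR adjusted p = 1.8e-05). Fbxo32, atrogin-1, stood at 39.1, 43.3 and 37.7 CPM starved, 4.29 to 5.40 CPM refed and 23.6, 21.1 and 20.4 CPM with Rap.

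Ccng2, cyclin G2, held 45.4, 50.8 and 45.8 CPM starved and 44.4, 44.6 and 54.2 CPM with Rap, overlapping, with a difference of 0.01 (95% interval -0.24 to 0.26, edgeR adjusted p = 0.937). Refed cells held 11 to 14.2 CPM, 3.69-fold less than Rap cells. Txnip, a thioredoxin inhibitor, stood at 317, 363 and 324 CPM starved, 82.7, 72.7 and 76.8 CPM refed and 113, 119 and 121 CPM with Rap. It fell by 1.51 ± 0.08 from starved cells (edgeR adjusted p = 3e-07) and stayed 1.52-fold above refed cells (edgeR adjusted p = 0.00084). Eif4ebp1, 4E-BP1, stood at 66.2, 69.7 and 74.3 CPM starved, 29.2 to 29.3 CPM refed and 19.5, 18.0 and 18.2 CPM with Rap, below all other groups. Klf15 and Pdk4, also called lower, were at or under 1.05 CPM in each of the 12 libraries and lost the call with starved replicate 2 alone.

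**Figure D4:**
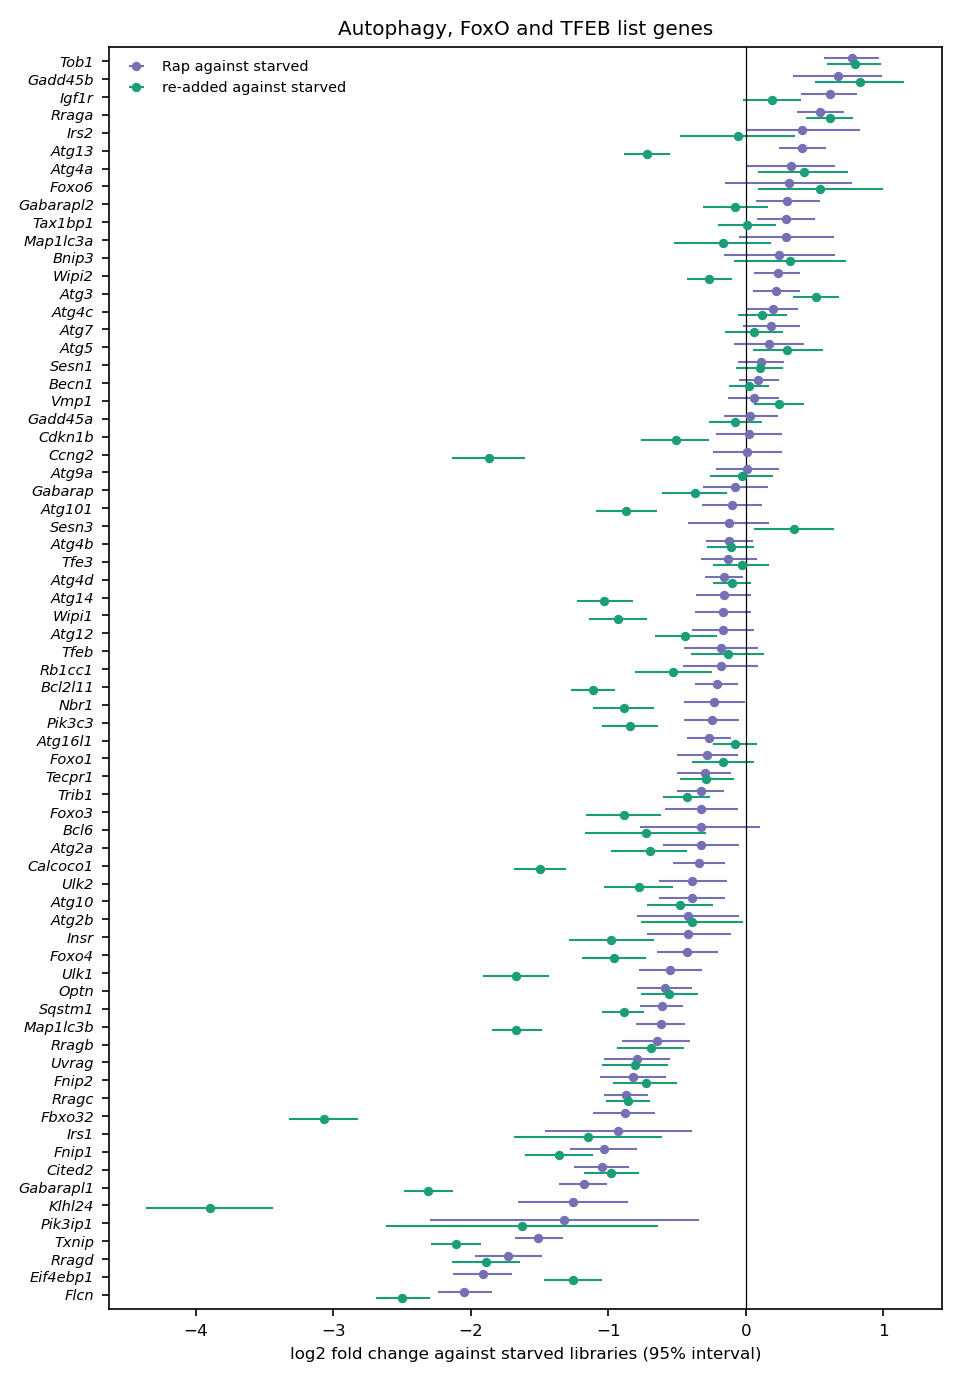
Log2 difference from starved cells with its 95% interval for genes of the autophagy, FoxO and folliculin lists, for Rap cells and for cells refed without Rap, which share the starved libraries. Klhl24, Fbxo32 and Gabarapl1 lie farther below 0 without Rap than with it, and Atg13 lies above 0 with Rap and below 0 without.

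Genes of the mTOR complexes and their regulators showed no common direction, with 5 of 36 higher and 8 lower and a median of 0.0 (3 and 6 with starved replicate 2 alone). Tbc1d7, the third subunit of the TSC complex, rose from 17.8, 18.2 and 16.7 CPM to 35.6, 33.5 and 36.0 CPM, while Tsc1 fell by 0.59 and Tsc2 by 0.51. Nprl3, of the amino acid sensing complex GATOR1, rose by 0.72, and Sesn2, a leucine-sensing ATF4 target, fell by 0.87 from 145, 167 and 157 CPM to 87.8, 85.9 and 83.3 CPM. Deptor, an mTOR inhibitor, held 65.2, 77.1 and 69.1 CPM starved and 61.2, 60.7 and 57.2 CPM with Rap. All 3 Rap libraries lay below the starved ones, and the difference was not called (-0.24, edgeR adjusted p = 0.0545). It was 2.65-fold higher than in refed cells at 21.7 to 23.7 CPM (edgeR adjusted p = 7.3e-06).

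Ribosome biogenesis genes, which serve rRNA transcription and processing, were close to the starved level with Rap. Of 48 tested, 6 rose and 12 fell, median -0.02, and 3 rose and 8 fell with starved replicate 2 alone. The direct comparison put 36 of the 48 below refed cells and 1 above, median -0.50, against 3.43% of all genes below. In cells refed without Rap 30 of the 48 were called higher than in starved cells and 2 lower, median 0.40. Rrp12, a processing factor, stood at 24.2, 26.5 and 26.1 CPM starved, 65.0, 66.6 and 64.9 CPM refed and 33.0, 33.7 and 32.2 CPM with Rap. Rap libraries lay above starved ones by 0.36 (edgeR adjusted p = 0.00259, 0.0523 with starved replicate 2 alone) and below refed ones by 0.99 on the log2 scale (direct difference -0.99, edgeR adjusted p = 1.3e-05).

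Bop1, a factor of the large subunit, stood at 47.3, 52.7 and 49.3 CPM starved, 104, 106 and 109 CPM refed and 73.9, 71.7 and 78.7 CPM with Rap. Bysl, a factor of the small subunit, rose by 0.74 ± 0.08 from 27.3, 30.3 and 30.9 CPM to 49.1, 49.5 and 49.4 CPM, with refed cells at 70.4 to 77.4 CPM. Both genes lay between starved and refed libraries with no overlap. Gnl3, nucleostemin, went below the starved level, from 38.8, 44.8 and 36.5 CPM to 26.8, 24.4 and 26.6 CPM (-0.62, edgeR adjusted p = 0.00187), and Ncl, nucleolin, fell by 0.55. Of 30 genes of RNA polymerases I and III, 3 rose and 10 fell, median -0.06, and 1 rose and 8 fell with starved replicate 2 alone.

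Ribosomal protein genes themselves rose by small steps. Of 79 tested, 46 rose and 0 fell, median 0.31. The median was 0.42 with starved replicate 2 alone and also with only the libraries low in other-cell markers. None fell with all libraries at an unadjusted p under 0.05 in edgeR, by DESeq2 or by limma voom. Rpl3 stood at 545, 575 and 607 CPM starved and 771, 811 and 848 CPM with Rap, with refed cells at 742 to 796 CPM. Its rise was 0.49 ± 0.07 (edgeR adjusted p = 0.00032). In cells refed without Rap 3 of the 79 were called higher than in starved cells and 1 lower, median 0.07. Against refed cells 11 of 79 were higher with Rap, median 0.25. Ribosomal protein genes have many near-identical processed copies, so how reads were shared among them is uncertain. Translation initiation and elongation factors rose in 12 and fell in 7 of 37 cases, with 3 and 4 with starved replicate 2 alone, and 11 were below refed cells.

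Of 40 proteasome and chaperonin subunits 19 rose and 0 fell, median 0.21, with 7 higher and 1 lower with starved replicate 2 alone. With all libraries none fell at an unadjusted p under 0.05 in edgeR, by DESeq2 or by limma voom. Psmb3 stood at 64.4, 69.1 and 65.5 CPM starved and 102, 106 and 108 CPM with Rap. In the direct comparison 15 of the 40 were below refed cells. Heat shock proteins were mixed at 6 higher and 4 lower of 22 (4 and 2 with starved replicate 2 alone), and 14 of them lay below refed cells. Hsph1, HSP105, held 99.3, 123 and 114 CPM starved, 107, 118 and 109 CPM with Rap and 207 to 214 CPM refed. Rap and starved libraries overlapped (-0.01, edgeR adjusted p = 0.94), and the direct difference from refed cells was -0.92 (edgeR adjusted p = 0.00054). Bag3, a co-chaperone of selective autophagy, rose from 57.8, 65.4 and 63.8 CPM to 135, 135 and 126 CPM, above the refed 105 to 113 CPM. Hspa9, the mitochondrial HSP70, fell by 0.89 from 390, 478 and 442 CPM to 243, 250 and 217 CPM.

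Cholesterol genes, targets of SREBP2, rose more often than they fell. Of 27 tested, 14 rose and 4 fell, median 0.31, and 8 rose and 1 fell with starved replicate 2 alone. Hmgcs1, the cytosolic HMG-CoA synthase, stood at 43.8, 45.6 and 43.5 CPM starved, 109, 114 and 120 CPM refed and 72.7, 74.2 and 67.2 CPM with Rap. Rap libraries were separate from both, and controls were at 87.1 to 90.5 CPM. The differences were 0.69 ± 0.06 from starved cells (edgeR adjusted p = 1.3e-05) and -0.68 ± 0.06 from refed cells (edgeR adjusted p = 6.3e-05). Fdft1, squalene synthase, reached the refed range, at 97.3, 94.8 and 96.0 CPM with Rap against 89.6 to 96.8 CPM refed and 50.7, 57.7 and 53.1 CPM starved. Against refed cells 13 of 27 were lower with Rap and 1 was higher.

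The sterol regulatory element, searched as TCACNCCAC on both strands, was found in 1 of 19 promoters of this list, that of Hmgcs1 at chr13:119690180-119690256, plus strand, motif at -137, and in 1.22% of tested genes and of all genes. It is shown as RefSeq gives it on GRCm38.p6, 5′ to 3′ with the motif in capitals.
Hmgcs1: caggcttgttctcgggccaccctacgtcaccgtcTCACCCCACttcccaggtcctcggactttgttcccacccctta

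Of 23 fatty acid genes 4 were higher and 7 lower, beside 20.2% and 23.9% of all genes. Their median was -0.21, and -0.14 with starved replicate 2 alone. Scd2, a desaturase, stood at 648, 754 and 702 CPM starved, 2009 to 2271 CPM refed and 1177, 1231 and 1102 CPM with Rap. Fasn, fatty acid synthase, was at 263, 275 and 270 CPM starved, 330 to 384 CPM refed and 194, 205 and 176 CPM with Rap. Its Rap libraries were the lowest of all 12, with -0.49 from starved cells (edgeR adjusted p = 0.00513, 0.0655 with starved replicate 2 alone) and -0.87 from refed cells (edgeR adjusted p = 0.00067).

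Glycolysis genes, with glucose and lactate carriers, moved in both directions. Of 26 genes 11 rose and 6 fell, median 0.19, with 6 and 3 with starved replicate 2 alone. Slc2a1, GLUT1 (chromosome 4, 119108711 to 119137983, plus strand), stood at 29.3, 27.2 and 27.6 CPM starved, 81.0, 77.4 and 73.2 CPM with Rap, 95.2 to 104 CPM refed and 137 to 150 CPM in controls. No group overlapped another, and the rise was 1.46 ± 0.07 (edgeR adjusted p = 1.2e-07). Ldha, lactate dehydrogenase A, stood at 204, 206 and 206 CPM starved and 465, 474 and 500 CPM with Rap, against 2367 to 2901 CPM in controls. Slc16a3, the lactate carrier MCT4, rose by 1.19 to 132 to 139 CPM, with controls at 686 to 750 CPM. Other carriers and lactate enzymes fell, Slc2a3 (GLUT3) by 0.41, Slc16a1 (MCT1) by 0.37 and Ldhb by 0.69. Of these Slc16a1 kept its call with starved replicate 2 alone. The differences in that fit were -0.41 for Slc2a3, -0.49 for Slc16a1 and -0.58 for Ldhb. Against refed cells 10 of the 26 genes were lower with Rap. Hk2 was called lower, yet it held 6.44, 0.856 and 2.99 CPM in the starved libraries, in the order of the other-cell markers, and its difference with starved replicate 2 alone was 0.03.

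Other HIF1 targets rose in 10 of 29 cases and fell in 6, with 6 and 4 with starved replicate 2 alone. Ak4, a mitochondrial adenylate kinase, stood at 1.71, 1.28 and 1.41 CPM starved, 7.53, 9.38 and 8.51 CPM with Rap, 12.9 to 13.6 CPM refed and 39.0 to 49.2 CPM in controls. The rise was 5.71-fold (2.51 ± 0.14 in log2, edgeR adjusted p = 3.7e-07). P4ha1, a collagen prolyl hydroxylase, rose from 112, 124 and 116 CPM to 256, 259 and 249 CPM, near the control range of 267 to 290 CPM. Hif1a itself held 95.3, 103 and 90.9 CPM starved and 88.0, 86.7 and 82.2 CPM with Rap, not called (edgeR adjusted p = 0.0949), although 3 of the alternative fits called it lower. Of 40 nuclear genes of the respiratory chain 21 rose and 1 fell, median 0.29, and 7 rose and 1 fell with starved replicate 2 alone. Sdhb, a subunit of complex II, rose from 77.5, 87.0 and 82.3 CPM to 127, 125 and 143 CPM.

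In polyamine synthesis 4 of 15 genes rose and 3 fell, and 4 and 2 did with starved replicate 2 alone. Odc1, ornithine decarboxylase (chromosome 12, 17544873 to 17551502, plus strand), stood at 284, 348 and 339 CPM starved and 777, 778 and 792 CPM with Rap. Refed cells were at 784, 821 and 797 CPM and controls at 293 to 357 CPM, so starved libraries were at the control level and both refed groups far above. The rise was 2.42-fold (1.27 ± 0.09 in log2, edgeR adjusted p = 1.8e-06), and the direct difference was -0.03 (edgeR adjusted p = 0.857). Sms, spermine synthase, rose by 0.95. Srm, spermidine synthase, rose by 0.55 and was -0.89 from refed cells (edgeR adjusted p = 0.0015). Mat2a, which makes S-adenosylmethionine, fell by 1.08 from 421, 499 and 414 CPM to 205, 205 and 218 CPM.

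Most circadian clock genes fell. Of 19 tested, 12 were lower and 2 higher, median -0.71, with 12 and 1 with starved replicate 2 alone. Bhlhe40, DEC1, stood at 71.5, 77.2 and 68.9 CPM starved and 19.5, 18.6 and 18.2 CPM with Rap, below the refed 22.8 to 26.9 CPM and the control 60.2 to 71.1 CPM. Its difference was -1.95 ± 0.09 (edgeR adjusted p = 1.2e-07). Nr1d2, REV-ERBβ, stood at 95.3, 123 and 93.0 CPM starved, 22.6 to 25.4 CPM refed and 52.9, 57.4 and 55.6 CPM with Rap. Cry1 rose by 0.63. Arntl rose by 0.42, a call lost with starved replicate 2 alone.

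Of 28 genes of insulin, PI3K and AKT signalling 16 fell and 2 rose, median -0.44, and 10 fell and 2 rose with starved replicate 2 alone. Akt2 stood at 366, 440 and 417 CPM starved and 252, 254 and 259 CPM with Rap (-0.68, edgeR adjusted p = 3.8e-05). Igf1r, the IGF1 receptor, rose from 115, 136 and 126 CPM to 187, 207 and 181 CPM. Immediate early genes split at 8 higher and 9 lower of 34, and at 6 and 7 with starved replicate 2 alone. Egr4 rose by 2.05 from 0.892, 0.909 and 1.24 CPM, and Klf10 fell by 1.1. In the MYC network 5 of 16 rose and 5 fell, and 3 and 4 did with starved replicate 2 alone. Mnt, a MYC antagonist, stood at 67.9, 81.2 and 77.8 CPM starved, 15.9 to 16.6 CPM refed and 47.8, 49.3 and 48.6 CPM with Rap, 2.97-fold above refed cells.

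Cell cycle genes split at 10 higher and 14 lower of 36, and at 3 and 12 with starved replicate 2 alone. The replication helicase genes Mcm2 to Mcm7 on the list were lower, Mcm2 from 658, 810 and 745 CPM to 459, 484 and 474 CPM, and refed cells were at 476 to 507 CPM. Cdk6 and Ccnd1 were called lower too, but Cdk6 held 6.32, 0.16 and 3.03 CPM in the starved libraries, and neither was called with starved replicate 2 alone. The cytokine and interferon list had the same form. With all libraries 10 of 25 fell and 3 rose, median -0.59, and with starved replicate 2 alone 4 fell and 5 rose, median 0.33. Icam1 shows it at 59.3, 4.17 and 26 CPM starved and 4.44, 4.36 and 3.67 CPM with Rap. TGF-beta and activin genes were called lower in 12 of 29 cases and higher in 2 with all libraries, median -0.33. Their median kept its sign, at -0.21 with starved replicate 2 alone and -0.22 with only the libraries low in other-cell markers. Genes normally silent in mature β-cells were called lower in 6 of 16 cases with all libraries. Their median went from -0.08 to 0.23 with starved replicate 2 alone.

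Of 27 β-cell transcription factors 7 rose and 7 fell, near the shares over all genes (20.2% higher and 23.9% lower). Their median was -0.17, and -0.24 with starved replicate 2 alone. Pdx1 (chromosome 5, 147269959 to 147275848, plus strand), the factor in the series title, stood at 365, 445 and 420 CPM starved and 504, 505 and 505 CPM with Rap. The Rap libraries were tightly grouped above all starved libraries and below the controls at 606 to 655 CPM. The difference was 0.30 ± 0.08 (edgeR adjusted p = 0.0085). With starved replicate 2 alone the difference was 0.22 and was not called. With only the libraries low in other-cell markers, which keep the same starved library, the difference was also 0.22. Refed cells held 462, 478 and 488 CPM, and the direct difference was 0.08 (edgeR adjusted p = 0.546).

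Mafa, an insulin gene activator, was at 115, 155 and 292 CPM starved and 309, 245 and 243 CPM with Rap. Starved replicate 3 overlapped the Rap libraries, and the difference of 0.50 was not called (edgeR adjusted p = 0.168). Without starved replicate 3 it was 0.98 (edgeR adjusted p = 0.00407), and with starved replicate 2 alone 0.82 (edgeR adjusted p = 0.0485). Hnf4a rose by 0.93, Bhlha15 (MIST1) by 0.87 and Isl1 by 0.61. Neurod1 fell by 0.70 from 408, 510 and 416 CPM to 271, 281 and 267 CPM, toward the control range of 208 to 217 CPM.

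Insulin transcripts were not called. Ins1 held 2029, 2115 and 2167 CPM starved and 2493, 2270 and 2416 CPM with Rap (0.19 ± 0.12, edgeR adjusted p = 0.225). Ins2 held 18000, 19075 and 19875 CPM starved and 22154, 20046 and 21691 CPM with Rap (0.17 ± 0.12, edgeR adjusted p = 0.295). After TMM scaling all Rap libraries lay above all starved libraries for both genes. In plain CPM this did not hold for Ins2, with Rap replicate 2 at 19582 and starved replicate 3 at 19936. A fit of only these 6 libraries, also with TMM scaling, called both genes higher (edgeR adjusted p = 0.0182 and 0.0236, respectively). Controls were at 2957 to 4306 CPM for Ins1 and 21926 to 32754 CPM for Ins2. Of 20 genes of insulin and prohormone processing 8 rose and 1 fell, median 0.19, with 3 and 1 with starved replicate 2 alone. Sst and Gcg, other islet hormones that this line transcribes, rose by 0.71 and 0.60. Slc30a8, the granule zinc carrier, fell by 0.40 from 116, 151 and 126 CPM to 100, 96.8 and 99.9 CPM, a call lost without starved replicate 2 or any one of the Rap libraries.

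Glucose sensing and channel genes split at 4 higher and 6 lower of 22, and at 2 and 5 with starved replicate 2 alone. Trpm5, a calcium-activated cation channel, rose from 14.0, 18.4 and 15.1 CPM to 32.6, 31.4 and 30.1 CPM, and Kcnj11, of the ATP-sensitive potassium channel, rose by 0.49. Cacna1c, an L-type calcium channel, fell by 1.13, and G6pc2, the islet glucose-6-phosphatase, fell by 0.56 from 1490, 1838 and 1639 CPM to 1139, 1124 and 1116 CPM. In the exocytosis machinery 10 of 23 rose and 4 fell, with 3 and 3 with starved replicate 2 alone. Rph3al, a Rab effector of granules, fell by 1.48 and Snap25 rose by 0.68.

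**Figure D5:**
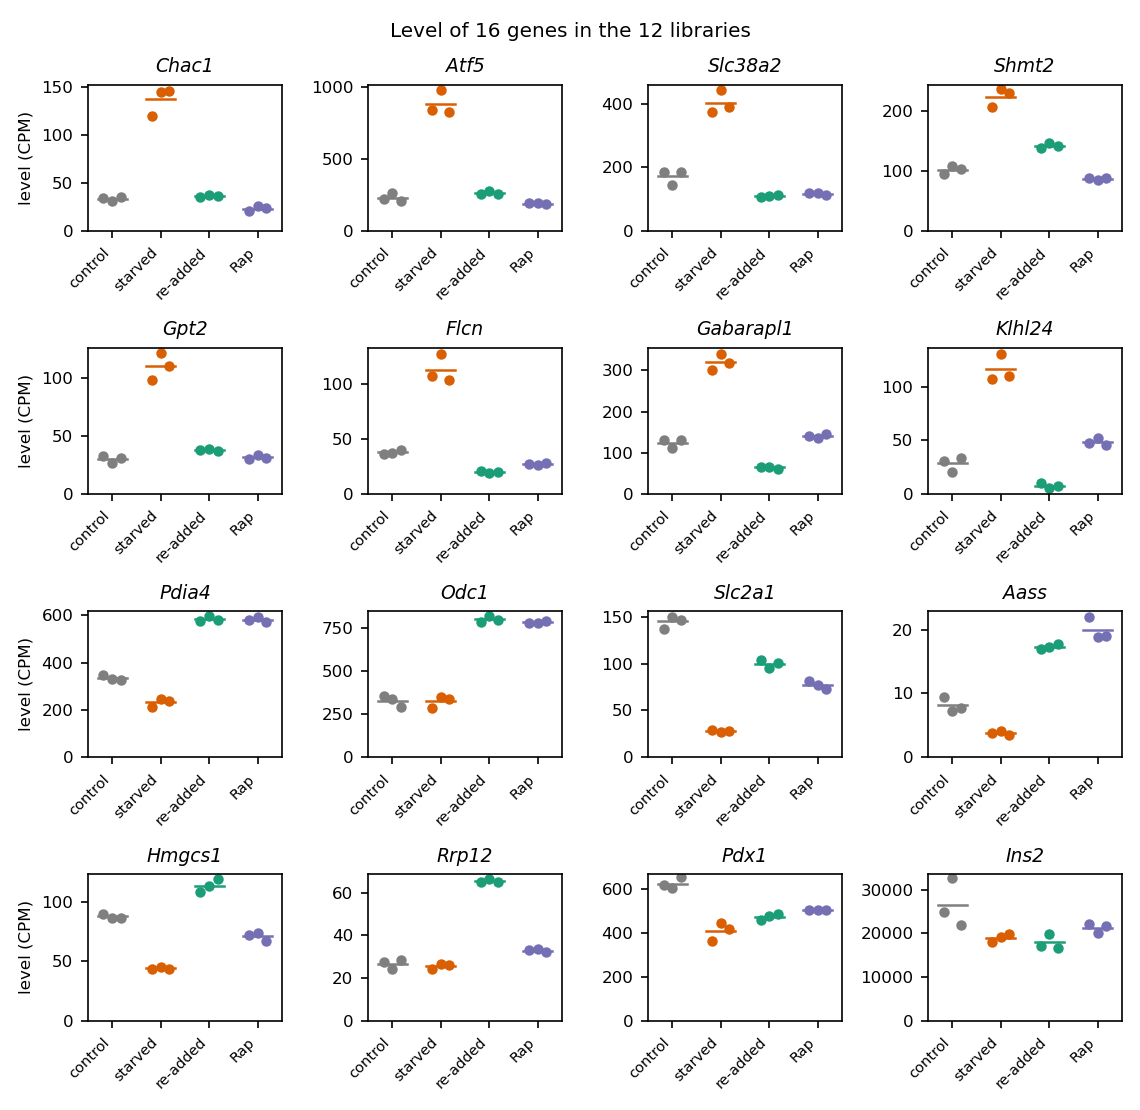
CPM of 16 genes in each of the 12 libraries (points) with group means (lines), in the order control, starved, refed and Rap. Chac1, Atf5, Slc38a2, Gpt2 and Flcn are highest in starved cells, Pdia4, Odc1 and Aass lie high in both refed groups, Gabarapl1 and Klhl24 are intermediate with Rap, and Pdx1 at 504 to 505 CPM with Rap lies between starved and control cells.

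The largest changes were also read off in order of size, whether or not a gene was on a list. The genes ranked had at least 5 CPM in 1 of the 2 groups, separate libraries and a call in both fits. The largest rise was that of Il4i1, an amino acid oxidase, 12.9-fold from 0.543, 0.374 and 0.427 CPM to 6.12, 5.63 and 5.92 CPM (edgeR adjusted p = 1.6e-05). Il4i1 (chromosome 7, 44816387 to 44840809, plus strand) overlaps the start of Atf5, which lies on the other strand. The strand setting of the counting is not given in the sources used here, so reads in the overlap cannot be told apart. The same holds for Appbp2os, an antisense gene that rose by 2.84. Mest, an imprinted gene of the hydrolase family (chromosome 6, 30723547 to 30748465, plus strand), rose 6.81-fold, from 2.95, 3.58 and 2.35 CPM to 20.3, 20.1 and 19.9 CPM. Its refed libraries were at 19.9 to 24.4 CPM and its controls at 3.57 to 4.29 CPM. Arrdc3, an arrestin-like adaptor, rose 5.21-fold from 21.4, 18.6 and 18.9 CPM to 98.2, 102 and 107 CPM, above the refed 76.1 to 79.8 CPM. Fbp1, a gluconeogenic phosphatase, rose from 22.3, 28.2 and 24.0 CPM to 86.3, 93.2 and 93.8 CPM, above the refed 53.9 to 58.6 CPM.

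Among the 10 largest falls were those of Slc7a11, Trib3, Chac1, Sphk1, Chka, Atf5, Nupr1, Slc6a9 and Klf11, of which 6 are on the ATF4 list. Sphk1, sphingosine kinase 1, fell 5.69-fold from 23.7, 31.1 and 23.6 CPM to 4.99, 4.58 and 4.18 CPM, and refed cells without Rap were lower still at 1.62 to 2.09 CPM (1.34, edgeR adjusted p = 0.00041). Klf11, a Krüppel-like repressor, had the same order, at 48.1, 59.1 and 51.6 CPM starved, 12.2, 12.8 and 12.7 CPM with Rap and 4.67 to 5.93 CPM refed. Chka, choline kinase α, fell from 115, 135 and 134 CPM to 23.9, 26.4 and 31.2 CPM.

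Some large changes were close in size with and without Rap. Among genes changed at least 2-fold whose 95% interval of Rap against refed lay within 0.5 on the log2 scale, the top rises were Aass, Mest, Pcp4l1, Haghl and Gpcpd1 and the top falls included Gpt2, Sh2d5, Slc38a2 and Nt5c2. Gpcpd1, a glycerophosphocholine phosphodiesterase, stood at 21.6, 20.4 and 18.7 CPM starved, 69.1, 72.8 and 68.4 CPM refed and 73.1, 70.3 and 70.0 CPM with Rap. The Rap and refed libraries interleaved, with a direct difference of 0.02 (edgeR adjusted p = 0.89). Pcp4l1 stood at 24.2, 26.3 and 25.9 CPM starved, 89.2, 91.9 and 85.8 CPM refed and 100, 102 and 105 CPM with Rap. Its Rap libraries all lay above the refed ones.

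Other genes moved farther from the starved level with Rap than without it. Frat1, a GSK3-binding protein, stood at 5.55, 5.45 and 7.35 CPM starved, 3.75, 3.62 and 3.88 CPM refed and 17.0, 18.9 and 17.2 CPM with Rap. Rap libraries were the highest of all 12, with 1.53 ± 0.18 from starved cells (edgeR adjusted p = 7.4e-05) and 2.24 ± 0.19 from refed cells (edgeR adjusted p = 3.5e-05). Kl, klotho, stood at 10.9, 11.4 and 11.8 CPM starved, 13.0, 14.6 and 15.7 CPM refed and 24.7, 27.4 and 24.3 CPM with Rap. Kctd12b rose by 1.39 and Smco4 by 1.02. On the falling side Adm2, a peptide of the calcitonin family, stood at 16.6, 20.2 and 20.0 CPM starved, 8.06 to 9.10 CPM refed and 4.28, 3.92 and 5.69 CPM with Rap. Sltm, an RNA-binding nuclear protein, held 42.2, 43.4 and 42.4 CPM starved, 34.2, 32.7 and 33.3 CPM refed and 20.7, 16.3 and 17.0 CPM with Rap. Its Rap libraries were the lowest of all 12, 2.37-fold below starved cells (edgeR adjusted p = 8.6e-06).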

How the data were processed

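RNA-seq counts of 12 MIN6 libraries (4 groups of 3) were used as the authors deposited them, 1 whole-number count per gene and library for 49315 genes. The authors' deposited TPM table supplied gene names, and TPM recomputed from the counts differed from it by at most 5.0e-05. Subread 2.0.1, limma 3.46.0 and GRCm38.p6 are named in the submitters' processing notes, without roles. For the aligner, strand setting and annotation release, the sources used here name none. Of the genes, 174 had no name.

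From the counts, edgeR 4.0.16 (R 4.3.3) was run with TMM scaling, its expression filter by group (minimum count 10, minimum total 15), and the quasi-likelihood test over all 12 libraries with 8 residual degrees of freedom. The filter left 16844 genes with 99.9% of counts. The main contrast was Rap minus starved. Adjusted p-values are Benjamini-Hochberg over all genes tested, with a threshold of 0.05. Data were simulated from these libraries for that contrast (16447 genes). In them 65, 66 and 65 genes were changed by 0.5, 1 and 2 on the log2 scale. Of these edgeR found 32.3%, 69.7% and 83.1%, with 6 false calls among 127. Far fewer genes changed there than were called in the real contrast, so these shares need not hold for it. DESeq2 1.42.0 and limma 3.58.1 with voom were alternatives, as were other scalings and filters, a replicate block, each library left out, and the libraries low in other-cell markers.

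The comparison and its 47 gene lists (1206 entries, all matched; 40 described and 7 of other cells) were chosen with earlier results of these data known. Lists are described by counts and medians. Named genes came from a written rule: 8 fixed genes, the 10 largest rises and falls among 2709 eligible genes, the 3 called members of each list with the smallest p and its few calls against the majority, 5 rises and 5 falls near the refed level, and 5 and 5 beyond it. Eligible genes had a call, at least 5 CPM in 1 group, separate libraries and the same call with starved replicate 2 alone. That rule gave 155 genes, of which 122 had a RefSeq promoter, matched by symbol. Other genes in the text were chosen after their values were seen. Some named genes are not reported here.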

Additional observations from a re-analysis of the deposited data

How the results depend on the processing

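The 3399 higher calls became 1554 with starved replicate 2 as the only starved library and 2248 with the marker sum of other cells as a covariate. The 4025 lower calls became 1784 with starved replicate 2 alone. The 758 genes at least 2-fold higher became 264 with the stricter filter of 5 CPM, which tests fewer genes. The 1595 at least 2-fold lower became 617 with limma voom, 800 with the stricter filter, 942 with only the 6 starved and Rap libraries, 350 with starved replicate 2 alone, 501 with low-marker libraries only and 469 with the covariate. Leaving out 1 library at a time gave 2513 to 3938 higher and 2427 to 4393 lower calls, and 667 to 796 and 602 to 2120 at least 2-fold. Lower calls were 2599, 2556 and 2427 without Rap replicate 1, 2 or 3. At least 2-fold lower genes were 602 without starved replicate 1 and 818, 820 and 739 without those Rap replicates. The share of calls that were higher ran from 41.4% to 53.7%, against 45.8% with all libraries. The causes were not tested. With a replicate block the counts were 3225 higher and 3703 lower, and 747 and 1437 at least 2-fold, and all 155 named genes kept their side of the threshold. Same-numbered starved and Rap libraries deviated with correlations of 0.006, -0.01 and -0.052, so the numbers were not shown to pair them. For part of the named genes the naming rule required the same call with starved replicate 2 alone. Their agreement in that fit was therefore partly fixed in advance and is no test of it. No call of a named gene reversed under any alternative run, although most of these genes were chosen because they were called. Egr4 and Appbp2os were not tested under the stricter filter. Of 298 changed calls of named genes over both comparisons, most concern Rap against refed cells, for example Mat2a, Rph3al, Nt5c2 and Slc7a11. Depth limits low genes: 5 CPM is 92.8 to 128 reads. In the simulation 32.3% of the 65 genes changed by 0.5 in log2 were found. The simulation changed far fewer genes than were called here and did not sort them by level. That share therefore need not hold for these data and says nothing about low genes in particular.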
